A study of Mus musculus with 12 samples.

Results

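The genes described here are 10 that bring fatty acids into cells or bind them there, taken from the table by their symbols: Lpl, Cd36, Slc27a1, Slc27a2, Slc27a4, Slc27a5, Fabp1, Fabp3, Fabp4 and Fabp5. All 10 were found among the 22276 gene symbols of the table. RNA from white fat (white adipose tissue, WAT), brown fat (BAT), liver and quadriceps muscle of male C57BL/6J mice was sequenced, with 1 library for each organ and group and 12 libraries in all. NCD-veh mice ate a normal chow diet and received vehicle. HFD-veh mice ate a high-fat diet from 8 wk of age and received vehicle. HFD-ncls mice ate the same high-fat diet and received narciclasine (ncls), a plant alkaloid, by gavage at 1 mg/kg once a week, starting at 10 wk of age and lasting 7 wk. All organs were taken at 17 wk. The sources used here do not state how many mice each library stands for.

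Fatty acids reach tissues in circulating triglycerides and bound to albumin. Lipoprotein lipase, made from Lpl, frees them from triglyceride-rich particles at the capillary wall, CD36 and the fatty acid transport proteins (FATPs, the Slc27a genes) carry them across the membrane or activate them with coenzyme A, and the small fatty acid binding proteins (FABPs) hold them in the cytosol. White and brown fat, liver and muscle are known to use different members of these families, and several members are targets of the PPARs, nuclear receptors that fatty acids activate.

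Levels are in FPKM, fragments per kilobase of transcript, scaled to the mapped fragments of the library, a scale per length on which genes can be compared with each other. FPKM is not a count, and the approximate depths were 18300000 to 26000000 fragments, with 9130 to 12052 genes at 1 FPKM or more. With 1 library per organ and group there is no spread between mice, no p-value and no test of any difference, and each value describes 1 library. Differences are of log2(FPKM + 0.1), which understates the change of low genes, and a gene entered a comparison when it reached 1 FPKM in at least 1 of its libraries. In bulk RNA, fewer cells of a type and less RNA per cell cannot be told apart. Each organ showed its own markers: the 22 liver markers with values summed to 61144 to 70816 FPKM in liver, the 10 skeletal muscle markers to 107282 to 111653 in muscle, the 8 adipocyte markers to 6844 to 15449 in WAT and the 5 brown adipocyte markers to 1923 to 2318 in BAT. Alb had no value in liver and Myh4 none in muscle, so both were left out. Transcripts of another organ were found in some libraries: all 22 liver markers were above 0 in HFD-veh muscle, and the 10 muscle markers, which include Ckm and Acta1, summed in BAT to 2167 FPKM for NCD-veh, 899 for HFD-veh and 129 for HFD-ncls. In the text below, 3 values without group names are in this order. Results that these transcripts touch are given with them.

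Lpl had its highest levels in WAT, where NCD-veh had 2499 FPKM, HFD-veh 2722 and HFD-ncls 2701. In BAT its level was 1223, 817 and 1022 FPKM. In muscle it was 91.6, 61.9 and 86.8 FPKM, and in liver 2.89, 1.59 and 1.88 FPKM. The order of Lpl was therefore WAT, BAT, muscle and liver, and the 3 libraries of each organ lay apart from those of the next. By medians, BAT was 11.8-fold above muscle and muscle 46.1-fold above liver.

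Cd36, a scavenger receptor that takes up long-chain fatty acids, had the same order of organs. The WAT level was 969.7, 1164 and 1068 FPKM. In BAT it was at 189, 299.5 and 218 FPKM, and in muscle at 39.9, 35.7 and 52.6 FPKM. Liver was lowest, at 5.98, 21.5 and 7.38 FPKM. No library of one organ overlapped another organ, and neighbouring organs differed 4.89-fold to 5.47-fold by medians.

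The FATPs divided the organs. Slc27a1, which encodes FATP1, the transporter of fat and muscle, was at 90.7, 71.9 and 85.1 FPKM in WAT and at 75.4, 75.2 and 70.3 FPKM in BAT. The ranges of WAT and BAT overlapped, so the 2 fats were not ordered for this gene. In muscle Slc27a1 was at 29.2, 19.8 and 38.7 FPKM, and in liver at 4.90, 3.84 and 3.60 FPKM. Slc27a4, which encodes the more widely expressed FATP4, varied least between organs: it was at 9.19, 11.6 and 12.1 FPKM in WAT and at 8.08, 7.27 and 8.78 FPKM in liver. Its levels in BAT were 4.91, 4.43 and 4.21 FPKM, and those in muscle 2.06, 2.06 and 2.71 FPKM.

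Slc27a2, which encodes FATP2, a very long-chain acyl-CoA synthetase of liver and kidney, was at 518, 547 and 482 FPKM in liver. It was also at 66.3, 65.5 and 74.9 FPKM in BAT, 12.8%, 11.97% and 15.5% of the liver level of the same group. Slc27a5, which encodes the bile acid-CoA ligase FATP5, was at 375, 344 and 324 FPKM in liver, but listed at 0, 0.0345 and 0.0173 FPKM in BAT. In these BAT libraries the 22 liver markers had a median of at most 0.00109% of their liver level, with 12, 15 and 9 of them at 0, so Slc27a2 was present in BAT where Slc27a5 and most liver markers were at or near 0. In WAT and muscle Slc27a2 stayed at 3.44 FPKM or below and Slc27a5 at 1.98 FPKM or below.

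Read as shares, Slc27a1 led the FATP genes in WAT and muscle, and BAT and liver each had 2 leading genes. Slc27a1 was 82.9% to 89.1% of the summed FPKM of the 6 Slc27a genes in WAT. In BAT the sum was split between Slc27a1, at 51.2%, 51.5% and 46.9%, and Slc27a2, at 45.1%, 44.9% and 49.9%. In liver it was split between Slc27a2, at 57.1%, 60.6% and 58.9%, and Slc27a5, at 41.4%, 38.1% and 39.5%. In muscle Slc27a1 was 91.9% in NCD-veh and 92.4% in HFD-ncls but 71.0% in HFD-veh, where Slc27a2 held 12.3% and Slc27a5 7.10%. That HFD-veh muscle library also held liver transcripts, as described below. Slc27a3 and Slc27a6, the remaining members of the family, did not pass 2.52 FPKM in any library.

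Among the binding proteins, Fabp4, the adipocyte FABP also called aP2, was the most abundant member: it was at 12720.3, 12381 and 11212 FPKM in WAT and at 8965, 8605 and 8416 FPKM in BAT. Muscle had 232, 284 and 291 FPKM, and liver 4.29, 6.90 and 8.59 FPKM. Muscle also held adipocyte transcripts, whose 8 markers were at a median of 0.442%, 0.961% and 0.855% of their WAT level, while Fabp4 in muscle was at 1.82%, 2.29% and 2.60% of its WAT level. Fabp4 is also known from capillary endothelium, and the 6 endothelial markers summed to 39.1, 40.1 and 41.6 FPKM in muscle and to 164.8, 266.5 and 278 FPKM in WAT. The part of either cell type in muscle Fabp4 was not tested.

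Fabp5, the epidermal FABP, lies in the same gene cluster as Fabp4. On mm9, Fabp5 spans chromosome 3 from 10012548 to 10016607 on the plus strand and Fabp4 from 10204347 to 10208576 on the minus strand, with their start sites 196 kb apart in a cluster of 5 FABP genes that covers 289 kb. The 2 genes differed widely in level. Fabp5 was at 44.7, 135 and 143 FPKM in WAT, so that Fabp4 was 285-fold, 91.6-fold and 78.4-fold above it. In BAT Fabp5 was at 20.3, 22.1 and 17.9 FPKM, in muscle at 1.45, 1.64 and 1.85 FPKM, and in liver at 3.28, 4.05 and 12.5 FPKM. Over their coding sequences Fabp4 and Fabp5 were 62.2% identical with no identical run longer than 12 bases.

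Fabp3, the heart and muscle FABP, was at 298, 313 and 466 FPKM in muscle and at 295, 976 and 1002 FPKM in BAT. The ranges of the 2 organs overlapped, because NCD-veh BAT lay at the level of NCD-veh muscle. WAT had 1.66, 1.55 and 1.65 FPKM, and liver had 0.134, 0.421 and 0.179 FPKM. Brown and white fat did not overlap in Fabp3, the lowest BAT library being at 295 FPKM and the highest WAT library at 1.66. Muscle was the organ in which Fabp3 and Fabp4 were closest: there the ratio of Fabp3 to Fabp4 was 1.29, 1.10 and 1.60.

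Fabp1, the liver FABP, was at 3339, 7341 and 6690.4 FPKM in liver and at 98.5% to 98.8% of the summed FPKM of the 10 FABP genes there. It was listed at 0 in all 3 BAT libraries. WAT had 0, 4.69 and 19.9 FPKM, and muscle 0.511, 58.4 and 0 FPKM. In WAT Fabp4 was 98.5% to 99.6% of the family sum. In BAT Fabp4 was 96.6%, 89.6% and 89.2% and Fabp3 3.18%, 10.2% and 10.6%, and in muscle Fabp3 was 56.1%, 47.5% and 61.4% and Fabp4 43.5%, 43.1% and 38.4%. In HFD-veh muscle, which also held liver transcripts, Fabp1 was 8.87% of the sum. Fabp2, the intestinal FABP, was the only FABP gene outside the 10 that passed 1.75 FPKM, with 32.4, 102 and 71.5 FPKM in liver.

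**Figure D1:**
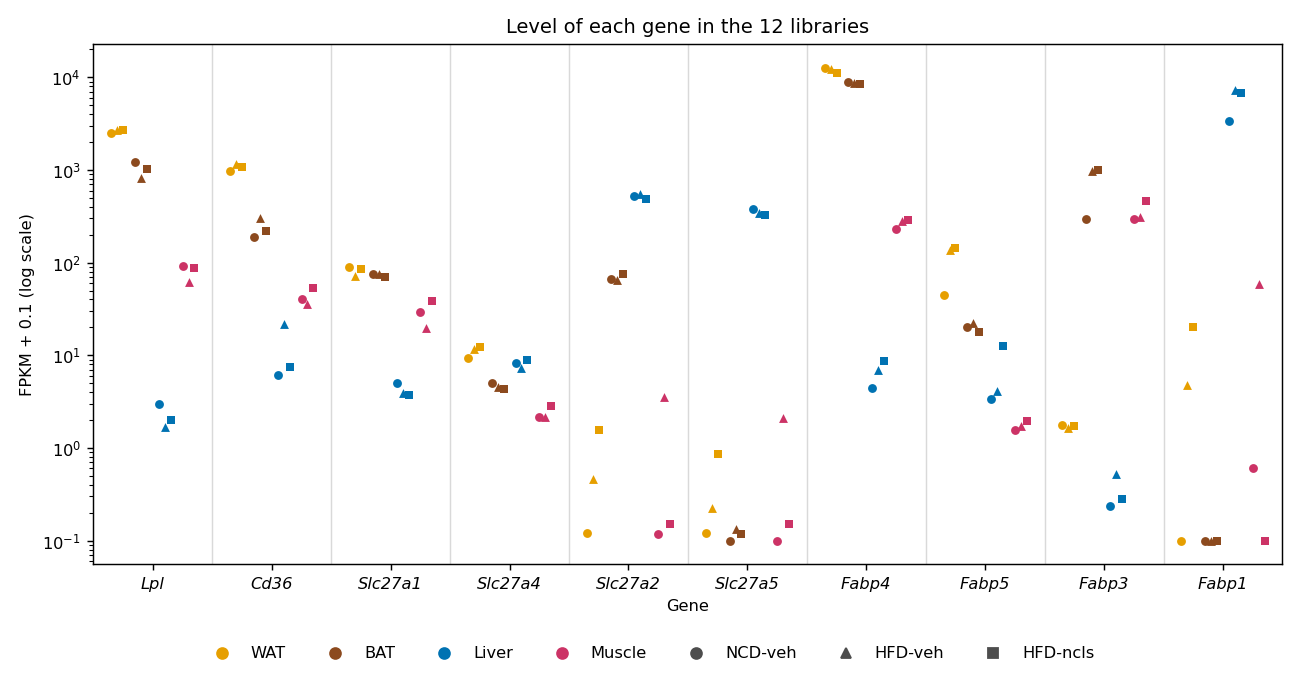
Level of each of the 10 genes in the 12 libraries, as FPKM + 0.1 on a log axis, with colour for the organ and marker shape for the group. Slc27a2, Slc27a5 and Fabp1 were highest in liver, Fabp3 was high in BAT and muscle, and Lpl, Cd36 and Fabp4 were highest in WAT, with the lone muscle triangle of Fabp1 at 58.4 FPKM far above the other 2 muscle libraries.

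**Figure D2:**
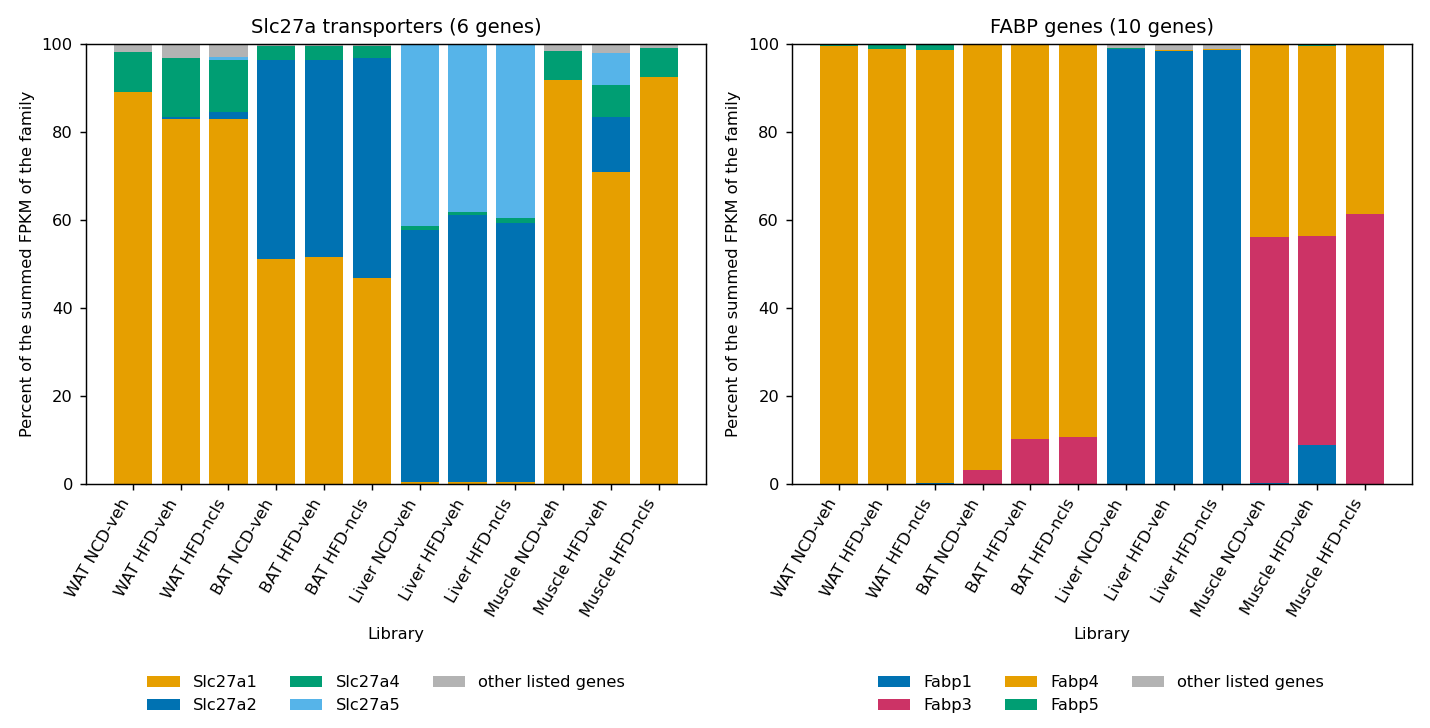
Share of each gene in the summed FPKM of its family in each library, in percent, for the 6 Slc27a genes and the 10 FABP genes. WAT and muscle were mostly Slc27a1, BAT split between Slc27a1 and Slc27a2 and liver between Slc27a2 and Slc27a5, and Fabp1 filled the liver bars at 98.5% to 98.8%.

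The change with the diet was read as HFD-veh against NCD-veh, and the change with ncls as HFD-ncls against HFD-veh. Both comparisons of an organ use the same HFD-veh library, so a value that is high or low in that library alone enters them with opposite signs. For this reason the 3 values are given side by side.

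In liver, Cd36 was 3.60-fold higher with the diet, at 21.5 against 5.98 FPKM, and 2.92-fold lower with ncls, at 7.38 FPKM. The HFD-ncls liver stood 1.23-fold above the chow liver. Of the adipocyte markers, Adipoq, Lep and Retn were at 0 in all 3 liver libraries, and Plin1 was at 0.0246 FPKM in HFD-veh and at 0 in the other 2. Of the 8 adipocyte markers, 3 were at 0 in HFD-veh liver, and the sum of the 8 was 5.98, 19.2 and 12.5 FPKM, most of it from Cfd, Cidec and Adrb3. With the diet 4 of the 8 were higher and 1 lower, and with ncls 1 was higher and 4 lower. In liver, Cfd was at 0.00200%, 1.55% and 0.759% of its WAT level and Cd36 at 0.617%, 1.85% and 0.691%. The 10 muscle markers summed to 2.18, 70.1 and 3.15 FPKM in liver, all 10 highest in HFD-veh, and Cd36 in HFD-veh liver was 21.5 FPKM also after the matching share of the muscle library was subtracted. Macrophage markers summed to 127, 87.6 and 72.7 FPKM in liver. No share of the WAT library was subtracted, and the part of adipocyte, muscle or macrophage transcripts in the Cd36 differences was not tested.

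Fabp1 in liver was 2.20-fold higher with the diet, at 7341 against 3339 FPKM, and 6690.4 FPKM with ncls, so both high-fat livers were above the chow liver. The intestinal Fabp2 had the same shape, with 32.4, 102 and 71.5 FPKM. Fabp5 in liver behaved otherwise: it was 3.28 and 4.05 FPKM in the vehicle livers and 12.5 FPKM in HFD-ncls, 3.08-fold above HFD-veh. These Fabp5 levels rest on about 76.3, 89.5 and 289.5 fragments. Of the 8 macrophage markers, 1 was higher and 7 were lower with ncls in liver. The part of macrophages in the Fabp5 difference was not tested. Fabp4 in liver was 1.61-fold higher in HFD-veh and Lpl 1.81-fold lower, Lpl on about 280, 147 and 182 fragments. Slc27a2 and Slc27a5, the leading FATPs of liver, differed by at most 0.18 on the log2 scale in either comparison.

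Of the 10 genes, 9 passed the filter in liver for the diet, and 4 of these were past 1.4-fold (Cd36, Fabp1 and Fabp4 higher and Lpl lower) and 2 past 2-fold (Cd36 and Fabp1). Among all 10016 genes tested, 23.8% were past 1.4-fold and 5.12% past 2-fold. For ncls, 9 passed the filter and 2 were past 1.4-fold and past 2-fold, Cd36 lower and Fabp5 higher, where 14.9% of 9956 genes were past 1.4-fold and 2.31% past 2-fold. The median log2 difference of the members that passed was 0.08 for the diet and -0.09 for ncls, against 0.04 and 0.02 over all genes tested. Fabp3, under 1 FPKM in every liver library, was left out.

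Promoters are shown for Cd36 and Fabp1, the members past 2-fold with the diet in liver, because fatty acid-activated receptors of the PPAR type are known to bind near such genes. Of the 10 members, 6 had 8 promoters in the RefSeq table of GRCm38.p6, and Fabp4, Fabp5, Lpl and Slc27a5 had none. The 250 bases before each start were searched on both strands for AGGTCA, the half-site of nuclear receptors, and capitals mark a match. The Cd36 stretch is chr5:17835897-17836146 on the minus strand, and that of Fabp1 is chr6:71199629-71199826 on the plus strand and ends before the first start of an annotated transcript.
Cd36: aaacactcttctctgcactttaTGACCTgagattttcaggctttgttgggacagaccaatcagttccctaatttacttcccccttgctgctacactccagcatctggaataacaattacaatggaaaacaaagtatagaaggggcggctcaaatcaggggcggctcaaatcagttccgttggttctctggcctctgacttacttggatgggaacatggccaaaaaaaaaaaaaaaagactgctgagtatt
Fabp1: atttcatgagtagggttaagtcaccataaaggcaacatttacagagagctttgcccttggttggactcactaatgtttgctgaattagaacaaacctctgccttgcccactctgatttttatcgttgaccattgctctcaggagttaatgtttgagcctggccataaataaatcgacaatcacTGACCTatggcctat
Both matches read as the reverse complement, 228 bases before the RefSeq start for Cd36 and 67 bases before it for Fabp1. Fabp1 had a second match 9 bases before its start, beyond the stretch shown. Slc27a2 had a match 220 bases before its start, so 3 of the 8 promoters held at least 1 match, and Slc27a1, Slc27a4 and Fabp3 had none. Of all 32851 promoters in the table, 14.02% held the half-site. Slc27a2, which holds it, was at 518, 547 and 482 FPKM in liver. A link between the half-site and the liver differences was not tested.

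In BAT, Fabp3 was the member that moved most with the diet, being 3.31-fold higher, at 976 against 295 FPKM, and it was 1002 FPKM with ncls. Both high-fat BAT libraries were therefore well above the chow library. Fabp3 is also a muscle gene, and the 10 muscle markers were at a median of 1.89%, 0.767% and 0.114% of their muscle level in BAT. They fell from group to group while Fabp3 was higher. With these shares of the muscle library subtracted, Fabp3 was 289, 974 and 1001 FPKM. The shares came from the 10 markers alone. Of 6 markers of slow-twitch muscle fibres, 4 were higher in BAT with the diet (median log2 difference 0.47). With ncls, 0 of these 6 were higher (median -3.34). The part of slow-twitch fibres in the BAT level of Fabp3 was not tested. The 5 brown adipocyte markers summed to 2318, 1923 and 2036 FPKM.

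Cd36 in BAT was 1.59-fold higher with the diet, at 299.5 against 189 FPKM, and 1.37-fold lower with ncls, at 218 FPKM. Lpl in BAT was lower in HFD-veh than in the other 2 libraries, at 817 FPKM against 1223 and 1022. The 6 endothelial markers were all higher with the diet in BAT, with sums of 159.8 and 215 FPKM, and their part in the Cd36 difference was not tested. Fabp4, Slc27a1 and Slc27a2 were within 0.19 on the log2 scale in both comparisons.

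For the diet in BAT 8 members passed the filter, with 3 past 1.4-fold (Fabp3 and Cd36 higher, Lpl lower) and 1 past 2-fold (Fabp3). The background was 17.6% of 10444 genes past 1.4-fold and 4.29% past 2-fold. For ncls 8 members passed, and 0 were past 1.4-fold, where 8.53% of 10331 genes were past 1.4-fold and 1.96% past 2-fold. The member nearest to that limit was Cd36, at -0.46 on the log2 scale, where 1.4-fold is 0.49. The medians of the members that passed were -0.01 and -0.05, against -0.04 and -0.02 over all genes tested.

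In WAT, Fabp5 was 3.03-fold higher with the diet, at 135 against 44.7 FPKM, and stayed at 143 FPKM in HFD-ncls. Macrophages are known to carry Fabp5, and all 8 macrophage markers were higher with the diet in WAT, with a median log2 difference of 0.62 and sums of 645 and 1015 FPKM. All 8 were also higher with ncls, at a sum of 1103 FPKM and a median of 0.13. The 8 adipocyte markers summed to 15449, 7263 and 6844 FPKM, with 6 of 8 lower in HFD-veh. The part of these cell types in the Fabp5 difference was not tested.

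The abundant fat genes were nearly level in WAT. Cd36, Lpl, Fabp4, Slc27a1 and Slc27a4 differed by at most 0.33 on the log2 scale with the diet and by at most 0.24 with ncls. Slc27a1, at 90.7, 71.9 and 85.1 FPKM, was lowest in HFD-veh, and Slc27a4, at 9.19, 11.6 and 12.1 FPKM, was lowest in NCD-veh. Fabp4, at 12720.3, 12381 and 11212 FPKM, was lowest in HFD-ncls.

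Of the members, 8 passed the filter in WAT for the diet and 2 of these were past both 1.4-fold and 2-fold, Fabp5 and Fabp1, where 29.3% of 12208 genes were past 1.4-fold and 9.11% past 2-fold. For ncls 9 passed and 2 were past both limits, Fabp1 and Slc27a2, where the background was 7.68% of 12152 genes past 1.4-fold and 1.70% past 2-fold. The values of Fabp1 and Slc27a2 in WAT are given with the liver markers. The medians of the members that passed were 0.19 for the diet and 0.08 for ncls, against 0.03 and 0.04 over all genes tested.

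In muscle, several uptake genes were lowest in the HFD-veh library. Slc27a1 was 29.2, 19.8 and 38.7 FPKM, 1.48-fold lower with the diet and 1.96-fold higher with ncls. Lpl was 91.6, 61.9 and 86.8 FPKM, 1.48-fold lower and 1.403-fold higher. Cd36 was 39.9, 35.7 and 52.6 FPKM, and 1.47-fold higher with ncls. Fabp3 had a different shape, with 298 and 313 FPKM in the vehicle muscles and 466 FPKM in HFD-ncls, 1.49-fold above HFD-veh. Fabp4, Fabp5 and Slc27a4 were within 0.38 on the log2 scale in both comparisons.

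Fibre-type markers also differed between these muscle libraries. The 6 slow-twitch markers, which include Myh7 and Myl2, summed to 44.4, 6.94 and 47.5 FPKM, with 0 of 6 higher with the diet (median log2 difference -3.68) and 6 of 6 higher with ncls (median 3.77). The 10 skeletal muscle markers, which include the fast-twitch genes Myh1 and Tnni2, summed to 111653, 111306 and 107282 FPKM. Their sum is therefore not neutral to fibre type. The 6 endothelial markers summed to 39.1, 40.1 and 41.6 FPKM. Macrophage markers summed to 18.5, 20.3 and 30.9 FPKM, 8 of 8 higher with ncls. The part of fibre composition and of macrophages in the differences of Slc27a1, Lpl, Cd36 and Fabp3 was not tested.

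All 10 members passed the filter in muscle. With the diet 5 were past 1.4-fold, where the background was 13.3% of 9587 genes, and 3 past 2-fold, where it was 4.11%. With ncls 7 were past 1.4-fold, against 13.9% of 9694 genes, and 3 past 2-fold, against 3.80%. The 3 past 2-fold in both comparisons were Fabp1, Slc27a2 and Slc27a5, the members that are highest in liver. Without these 3, 2 of 7 members were past 1.4-fold with the diet (Slc27a1 and Lpl) and 4 of 7 with ncls (Slc27a1, Fabp3, Cd36 and Lpl), with 0 past 2-fold in either. Lpl stood just inside the limit of 1.4-fold, at 0.49 on the log2 scale with ncls, and Slc27a4 stayed below it, at 0.38. The medians over the 10 were 0.12 and 0.27, against 0.03 and 0.04 over all genes tested.

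**Figure D3:**
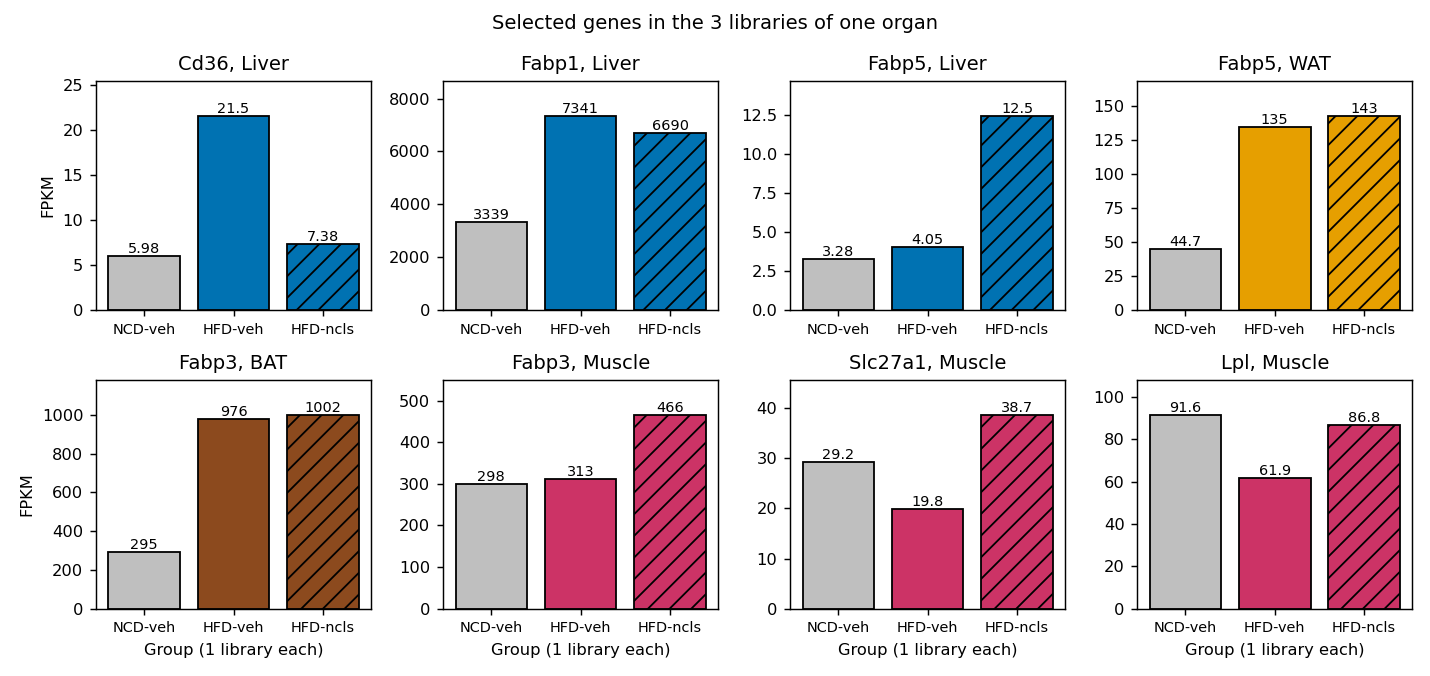
FPKM of selected genes in the NCD-veh, HFD-veh and HFD-ncls libraries of one organ, each panel with its own linear axis from 0 and 1 library per bar. Cd36 in liver was high in HFD-veh alone, Fabp5 in liver in HFD-ncls alone, and Fabp3 in BAT and Fabp5 in WAT in both high-fat libraries.

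**Figure D4:**
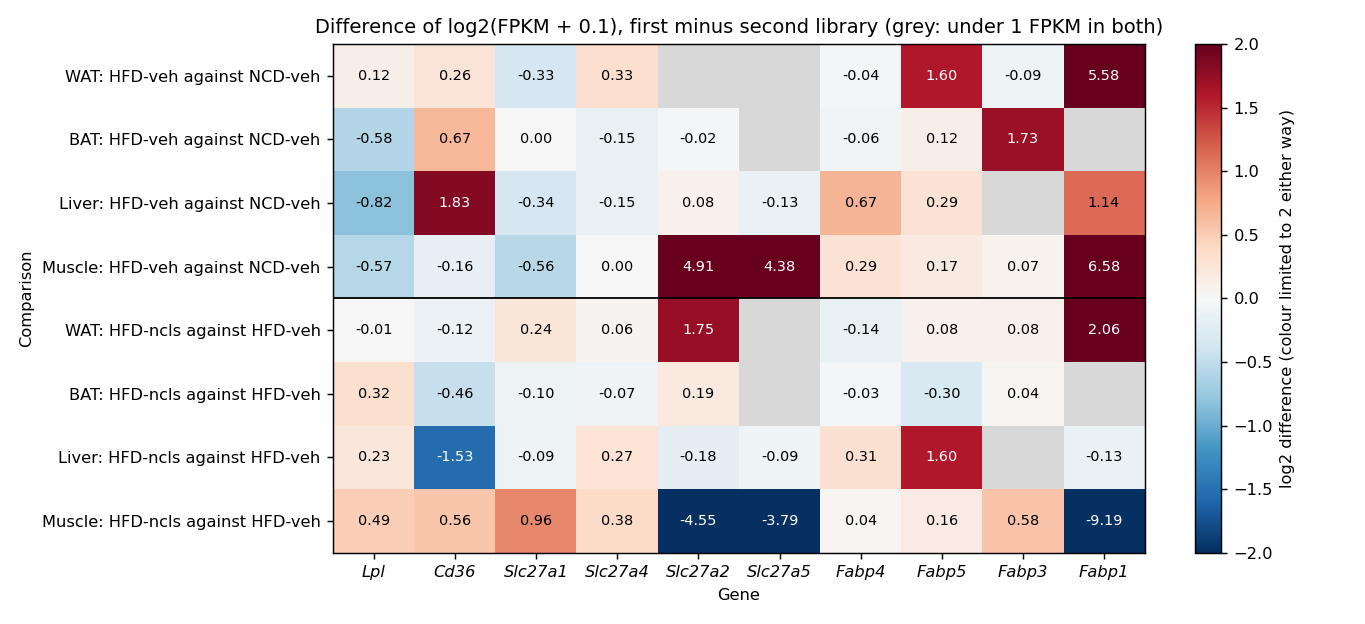
Difference of log2(FPKM + 0.1) for the 10 genes in the 4 diet comparisons (upper rows) and the 4 ncls comparisons (lower rows), with grey where both libraries were under 1 FPKM and colour limited to 2 either way. The strongest colours outside the columns of Slc27a2, Slc27a5 and Fabp1 were Cd36 in liver, at 1.83 and -1.53, Fabp5 in WAT and liver, at 1.60, and Fabp3 in BAT, at 1.73.

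Fabp1 in HFD-veh muscle, at 58.4 FPKM and about 840 fragments, stood against 0.511 FPKM and about 6.99 fragments in the chow muscle and a value listed at 0 with ncls. The log2 differences were 6.58 with the diet and -9.19 with ncls. Slc27a2 had the same shape, at 0.0175, 3.44 and 0.0509 FPKM, and Slc27a5 too, listed at 0 and at 1.98 and 0.0502 FPKM. Against HFD-veh liver, the HFD-veh muscle levels were 0.795% for Fabp1, 0.629% for Slc27a2 and 0.575% for Slc27a5. The 22 liver markers were at a median of 0.580% of their liver level in that muscle library (quartiles 0.494% and 0.698%, range 0.308% to 0.781%), so Slc27a2 and Slc27a5 lay within the range of the markers and Fabp1 just above it.

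The liver markers in muscle summed to 17.1, 375 and 8.16 FPKM, with 6, 0 and 9 of 22 at 0. All 22 were higher with the diet and lower with ncls. When the median share was subtracted, Fabp1 in HFD-veh muscle was 15.8 FPKM, Slc27a2 0.267 FPKM and Slc27a5 0. The muscle values of these 3 genes are given as they were measured, and the part of liver transcripts in them was not tested further.

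WAT showed the same 3 genes at lower levels. Fabp1 was listed at 0 in NCD-veh, and was at 4.69 FPKM in HFD-veh (about 52.6 fragments) and 19.9 FPKM in HFD-ncls (about 202 fragments). Slc27a2 was at 0.0209, 0.365 and 1.46 FPKM and Slc27a5 at 0.0206, 0.127 and 0.769 FPKM. In HFD-ncls WAT they were at 0.298%, 0.304% and 0.237% of the liver level, where the 22 liver markers had a median of 0.241%. In HFD-veh WAT they were at 0.0639%, 0.0667% and 0.0370%, where the markers had a median of 0.0717%, and in NCD-veh WAT the markers had a median of 0.00107% with 9 of 22 at 0. In WAT, 20 of the 22 markers were higher with the diet and 21 with ncls. Their summed level was 1057, 477 and 549.7 FPKM, most of it from Cyp2e1, which was at 1053, 438 and 409 FPKM in WAT.

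**Figure D5:**
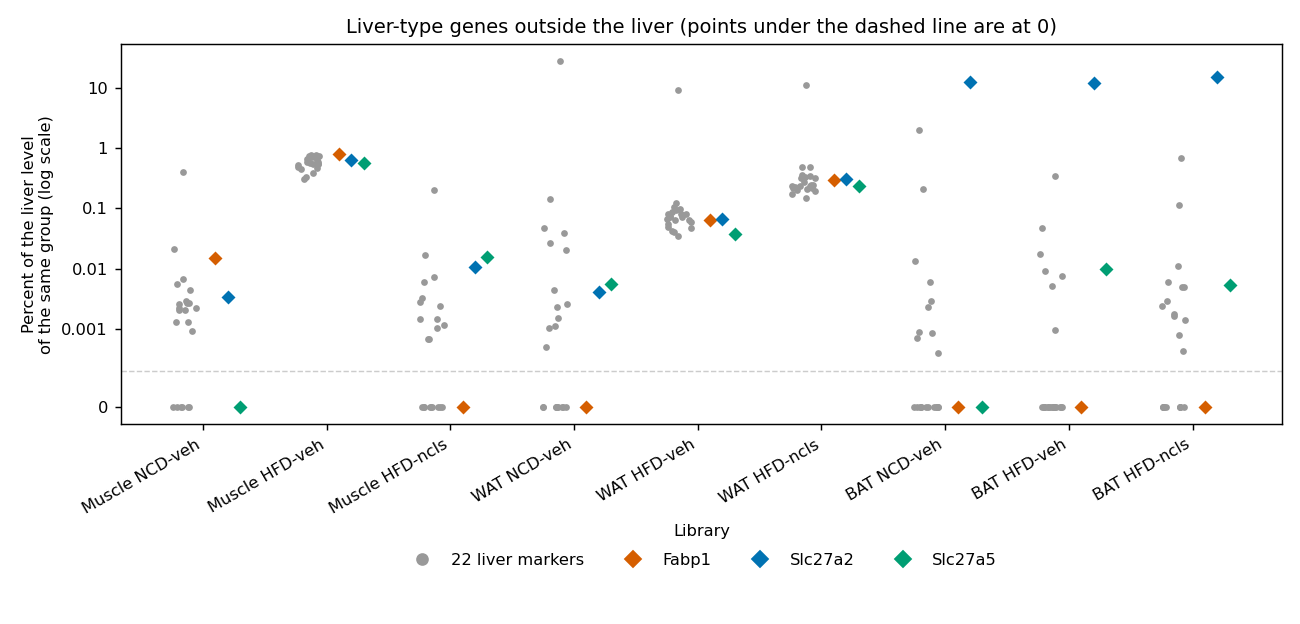
Level of 22 liver markers (grey) and of Fabp1, Slc27a2 and Slc27a5 (diamonds) in muscle, WAT and BAT libraries, as percent of the liver library of the same group on a log axis, with values of 0 drawn under the dashed line. In HFD-veh muscle the 3 genes sat beside the markers near their median of 0.580%, while Slc27a2 in BAT sat at 11.97% to 15.5%, far above a marker median of at most 0.00109%.

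The partners of these genes were read from 6 lists with 32 genes, of which Apoc2 had no value in any library. In WAT 19 passed the filter for the diet, and 3 were past 2-fold, all higher, where 9.11% of all genes tested were past 2-fold. Angptl4, an inhibitor of lipoprotein lipase, went from 194 to 395 FPKM, Gm6484 (the symbol of Angptl8) from 3.71 to 16.1 FPKM and the apolipoprotein gene Apoc3 from 0.274 to 2.39 FPKM. The Lpl level beside them was 2499 and 2722 FPKM. With ncls 20 passed and 2 were higher past 2-fold in WAT (1.70% of all genes tested), Apoc3 and Apoa5, both apolipoprotein genes of liver. In HFD-ncls mice Apoc3 was at 8.97 FPKM in WAT and 4929 in liver, and Apoa5 at 1.33 and 549. Of the 22 liver markers, 20 were higher in WAT with the diet and 21 with ncls. The part of liver transcripts in the WAT levels of Apoc3 and Apoa5 was not tested. Gpihbp1, the endothelial anchor of lipoprotein lipase, was 89.0, 132 and 166 FPKM in WAT and 116, 163 and 136 FPKM in BAT. The 6 endothelial markers summed to 164.8, 266.5 and 278 FPKM in WAT and to 159.8, 215 and 205.5 FPKM in BAT, with 6 of 6 higher with the diet in both fats, and their part in the Gpihbp1 levels was not tested.

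In liver 22 of the 32 passed the filter for the diet and 4 were higher past 2-fold, where the share over all genes tested was 5.12%. They were Fabp2, from 32.4 to 102 FPKM, the acyl-CoA synthetase gene Acsl3, from 3.29 to 7.37 FPKM, the endothelial lipase gene Lipg, from 2.83 to 8.94 FPKM, and Pparg, from 2.81 to 7.47 FPKM. Pparg was at 6.22 FPKM in HFD-ncls liver, where Cd36 was at 7.38 FPKM. A link between the 2 genes was not tested. For ncls 22 passed and 1 was past 2-fold (2.31% of all genes tested), Gm6484, which went from 52.9 to 18.0 FPKM and was at 71.4 FPKM in NCD-veh liver. Ppara, the PPAR of oxidative tissues, was at 34.3, 52.4 and 36.9 FPKM in liver.

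In BAT 17 of the 32 passed for the diet with 1 past 2-fold, Apoc3, from 2.85 to 0.457 FPKM, and 16 passed for ncls with 0 past 2-fold, beside 4.29% and 1.96% of all genes tested. In muscle 20 passed in each comparison. With the diet 4 were higher past 2-fold, among them Fabp2, Apoc3 and Apoa5, and with ncls 4 were lower and 1 was higher, beside 4.11% and 3.80% of all genes tested. Fabp2, Apoc3 and Apoa5 were listed at 0 in NCD-veh muscle and again with ncls. These 3 are genes of liver or intestine, and Fabp2 in HFD-veh muscle was at 1.17% of its liver level, beside the marker median of 0.580%. The gene that was higher past 2-fold with ncls was Angptl4, whose muscle level was 6.47, 4.12 and 8.40 FPKM. The median log2 difference over the genes of the lists that passed was 0.40 for the diet and 0.20 for ncls in WAT, -0.07 and -0.11 in BAT, 0.08 and -0.10 in liver, and 0.31 and -0.10 in muscle.

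Likeness of pattern was measured as Pearson's r of log2(FPKM + 0.1) over the 12 libraries, among 7485 genes, and is given as a description. The 12 points are 4 organs with 3 libraries each, so the r mostly follows the differences between organs. Lpl was most like Ampd3 (r = 0.998) and the adipokine gene Adipoq (0.996), and Fabp4 was most like the glycerol channel gene Aqp7 (0.995) and Tcf4 (0.994). Slc27a5 was most like Cyp2a12 and Mbl2 (both 0.999), and Slc27a2 like Timm9 and Kng2 (both 0.979). The hepcidin gene Hamp was among the 2 genes most like Fabp1 (0.995). Fabp3 was most like Cox7a1, a cytochrome oxidase subunit gene of muscle and brown fat (0.990), and Mdh2, the mitochondrial malate dehydrogenase (0.984). Cd36 was most like Irak3 (0.986) and Snn (0.985), Fabp5 like Ostf1 (0.987) and Lbh (0.986), Slc27a1 like Plcb4 and Sh3glb1 (both 0.988), and Slc27a4 like Faf2 (0.995) and Grn (0.992).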

How the data were processed

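RNA-seq of 12 organ libraries was used, grouped by organ, diet and treatment from the sample titles. The authors aligned the reads to mm9 with TopHat, quantified RefSeq genes with Cufflinks and deposited the levels as FPKM, 1 value for each symbol in each library. The sources used here mention no scaling across libraries, and 86 symbols lacked a value in at least 1 library. Values were computed in Python 3.11.15 (biopython 1.88, matplotlib 3.10.9, numpy 2.4.6, pandas 2.3.3). Differences of log2(FPKM + 0.1) were taken over all genes that reached 1 FPKM in at least 1 of the 2 libraries, and 1.4-fold and 2-fold set the counts. Because FPKM are not counts, no count test was run. Depth was approximated by taking the most common low value of FPKM times annotated transcript length as 1 fragment. The pool was 6160 genes with a single annotated transcript length of over 1000 bases, of which 771 to 1027 low genes entered per library. Fragments of a member were approximated from this depth and its longest annotated transcript. Positions and coding sequences come from the GENCODE annotation of mm9, and promoters from RefSeq on GRCm38.p6. The genes named were the 10 members, the listed partner genes past 2-fold or used for a level, and the 2 genes most like each member among those that reached 10 FPKM in a library. Members, partner lists and marker lists were chosen with earlier results of these data known. The calculations were tested on simulated data. Alternatives changed 1 choice at a time: pseudocounts of 1 and 0.01, no filter, a filter of 5 FPKM, rescaling by the median ratio, subtraction of liver and muscle marker shares, families limited to the members and, added later, the removal of 3 members. The values of some listed genes are not reported here.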

Additional observations from a re-analysis of the deposited data

Results flagged for a closer look

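For 3 genes the difference between HFD-ncls and HFD-veh passed the 1 FPKM filter, was past 1.4-fold in 2 organs and went opposite ways in them. The share of all genes that did the same is not given here, so this count has no background beside it. The difference between the organs was not tested, since each organ has 1 library per group. Cd36 was lower with ncls in liver (log2 difference -1.53, from 21.5 to 7.38 FPKM) and higher in muscle (0.56, from 35.7 to 52.6 FPKM). Fabp1 was higher in WAT (2.06, from 4.69 to 19.9 FPKM) and lower in muscle (-9.19, from 58.4 FPKM to a value listed at 0). Slc27a2 was higher in WAT (1.75, from 0.365 to 1.46 FPKM) and lower in muscle (-4.55, from 3.44 to 0.0509 FPKM). Slc27a5 went the same ways, from 0.127 to 0.769 FPKM in WAT and from 1.98 to 0.0502 FPKM in muscle. It did not pass the filter in WAT and is not among the 3 genes. The 22 liver markers moved in the same directions as Fabp1 and Slc27a2, with 21 of 22 higher with ncls in WAT and 22 of 22 lower in muscle. With the marker shares subtracted, HFD-veh muscle kept 15.8 FPKM of Fabp1 and 0.267 FPKM of Slc27a2.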

How the results depend on the processing

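With 1 library per group no library could be left out in turn. No paired analysis was possible because the labels give each group a single library. Of 176 counts, medians and family shares under the alternatives, 149 kept within their tolerance, 27 moved and 0 changed sign. Of 401 differences of single members, 382 kept, 19 moved and 0 changed sign. In WAT, the diet count past 1.4-fold (2) became 4 with no filter and 1 with a filter of 5 FPKM, with marker shares subtracted and without Fabp1, Slc27a2 and Slc27a5, the last chosen after seeing the data. Under these settings in turn, 26.1%, 25.2%, 29.1% and 29.3% of all genes tested were past 1.4-fold. The count past 2-fold (2) became 1 under the latter 3, where 6.50%, 8.92% and 9.11% of all genes tested were past 2-fold. The WAT ncls counts past 1.4-fold and 2-fold (2 each) became 1 with the filter of 5 FPKM, 1 with the subtraction and 0 without the 3 genes. Of all genes tested, 3.71%, 7.07% and 7.68% were then past 1.4-fold, and 0.818%, 1.20% and 1.70% past 2-fold. The count past 2-fold also became 1 with a pseudocount of 1, where 0.749% of all genes tested were past it. The liver diet count past 2-fold (2) became 1 without the 3 genes, where 5.12% of all genes tested were past 2-fold. In muscle, the diet count past 1.4-fold (5) became 3, 3 and 2 with the filter of 5 FPKM, the subtraction and the removal, and the count past 2-fold (3) became 1, 1 and 0. Of all genes tested, 8.67%, 11.5% and 13.3% were then past 1.4-fold, and 2.64%, 2.43% and 4.11% past 2-fold. The muscle ncls count past 1.4-fold (7) became 4 without the 3 genes, where 13.9% of all genes tested were past it. That past 2-fold (3) became 1, 1 and 0 under the same 3 settings, where 2.74%, 2.18% and 3.80% of all genes tested were. The muscle ncls median (0.27) became 0.52 with the filter of 5 FPKM and 0.49 without the 3 genes. FPKM holds no read counts, and low values such as Fabp3 in liver rest on under 10 fragments.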

Other observations

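The primer list for qRT-PCR holds a pair labelled Fabp1, with the forward primer GGAATTGGGAGTAGGAAGAGCC and the reverse primer TGGACTTGAACCAAGGAGTCAT. Among annotated protein-coding mouse transcripts on mm9, both primers matched without a mismatch only Fabp12, in all 5 of its transcripts, with a product of 222 bases. Against Fabp1 the fewest mismatches were 9 for the forward and 10 for the reverse primer, and against Slc27a1, the gene of FATP1, they were 7 and 8. The list holds 0 primers labelled Fatp1 or Slc27a1. In the libraries Fabp12 was listed at 0 FPKM in all 3 muscle samples and reached at most 0.0858 FPKM, in HFD-ncls WAT. Slc27a1 was at 29.2 FPKM in muscle of NCD-veh mice, 19.8 of HFD-veh mice and 38.7 of HFD-ncls mice, and Fabp1 at 0.511, 58.4 and 0 FPKM.

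Within the Slc27a family, coding sequences of Slc27a1 and Slc27a4 were 67.2% identical, with an identical run of at most 26 bases, and the other pairs among Slc27a1, Slc27a2, Slc27a4 and Slc27a5 were 56.3% to 59.7% identical. Fabp3 and Fabp4 were 66.5% identical with a run of at most 14 bases, although they were at 295 and 8965 FPKM in NCD-veh BAT and at 1.66 and 12720.3 FPKM in NCD-veh WAT. Between HFD-ncls and NCD-veh, Fabp3 in BAT was 3.40-fold higher, Fabp5 in WAT 3.20-fold higher, and Fabp5 in liver 3.80-fold higher, on the FPKM as deposited.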
